A study of Homo sapiens with 4 samples.

Results

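Heat shock proteins, their DNAJ co-chaperones and the heat shock factors were compared between cells carrying a hairpin RNA against STAT3 (STAT3 shRNA) and cells carrying a control hairpin (Ctrl shRNA). Members were the rows of the count table whose symbol names an HSP gene, a DNAJA, DNAJB or DNAJC gene or an HSF gene, together with AHSA1. HSPG2, HSPBAP1 and symbols ending in P and digits were left out, which also leaves out HSPBP1, a protein-coding gene whose symbol happens to end that way. The rule found 84 rows of 27452, with 83 symbols, since HSPA14 has 2 rows. By GENCODE 29, 74 of these rows are protein-coding and 10 are pseudogenes, namely HSPA7 and 9 copies of HSP90 genes whose symbols end in P alone.

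Molecular chaperones keep other proteins from misfolding. HSP70 proteins bind unfolded stretches of a client in a cycle driven by ATP, J-domain proteins of the DNAJ families bring clients and trigger the ATP hydrolysis, and HSP90 matures clients such as kinases and steroid receptors with the help of co-chaperones. HSPD1 and HSPE1 form the folding chamber of the mitochondrial matrix, small heat shock proteins hold clients without ATP, and HSF1 is the transcription factor that induces many of these genes through heat shock elements.

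The labels give 4 libraries of total RNA from HepG2, an established human liver cancer line, with 2 libraries of a control shRNA line and 2 of a STAT3 knockdown line. The hairpin sequences, the time after their delivery and whether a line is 1 clone were not stated. The labels do not say whether libraries with the same hairpin are separate cultures, so the p-values cover only library-to-library spread, part or all of which may be technical. STAT3, the targeted transcription factor, was at 245 and 244.3 CPM (counts per 1e6 reads after TMM scaling) with Ctrl shRNA and at 34.7 and 36.1 CPM with STAT3 shRNA, a 6.91-fold fall (adjusted p = 3.28e-07, edgeR). Total counts ran from 17694642 to 25862027.

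The hepatocyte markers that had rows were low or nearly absent in the libraries labelled HepG2. These levels do not bear out that name, which rests on the labels alone. Of 12 hepatocyte markers 6 had rows. They summed to 3.34 and 3.92 CPM with Ctrl shRNA and to 8.55 and 5.92 CPM with STAT3 shRNA. The others (AFP, APOB, APOC3, FGB, SERPINA1 and TTR) had no row, so their levels are unknown. ALB, serum albumin, had 0 CPM in 3 libraries and 0.163 CPM in STAT3 shRNA replicate 2. Most of the sum was HNF4A, which rose 3.99-fold (adjusted p = 0.00131, edgeR), and TF, which fell 3.01-fold (0.0236). Markers of other cell types, 9 of 12 with rows, summed to 63.8 and 74.7 CPM with Ctrl shRNA and to 64 and 65.7 CPM with STAT3 shRNA, with KRT5 at 0 throughout. Of these 5 were tested. ACTA2 rose by 1.08 on the log2 scale (adjusted p = 0.0132, edgeR), CD68 rose by 1.06 (0.00155) and DCN rose by 0.46 (0.0329), COL1A1 fell by 1.47 (5.00e-05), and CDH5 did not pass (-0.75, 0.227). Their part in the results was not tested.

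Heat shock elements are inverted repeats of GAA, and 6 promoters are printed so that their letters can be set beside the changes that follow. RefSeq windows of the 250 bases before a transcript start (GRCh38.p14) were searched for GAANNTTC and TTCNNGAA, which read the same on both strands and can overlap each other. Windows were found for 65 of the 83 symbols, 87 windows in all. Of these 20 (23.0%) held GAANNTTC or TTCNNGAA, against 11.6% of all 35116 windows of the table. TTCNNNGAA, the repeat that STAT proteins are known to bind, was in 4 of the 87 windows (4.6%) and in 6.57% of all windows. HSPD1 and HSPB1 fell with STAT3 shRNA, HSPA8, HSP90AB1 and HSP90AA1 did not pass the test, and DNAJC12 rose. Each sequence is written 5′ to 3′ on the strand of the gene, and capitals mark every match to these repeats.
HSPD1, chr2:197499841-197500090, minus strand: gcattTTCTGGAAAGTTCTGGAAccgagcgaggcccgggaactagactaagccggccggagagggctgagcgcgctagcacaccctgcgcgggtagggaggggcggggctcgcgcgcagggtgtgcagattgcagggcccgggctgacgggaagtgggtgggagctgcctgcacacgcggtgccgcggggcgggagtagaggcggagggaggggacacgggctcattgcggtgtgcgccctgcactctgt
HSPB1, chr7:76302423-76302672, plus strand: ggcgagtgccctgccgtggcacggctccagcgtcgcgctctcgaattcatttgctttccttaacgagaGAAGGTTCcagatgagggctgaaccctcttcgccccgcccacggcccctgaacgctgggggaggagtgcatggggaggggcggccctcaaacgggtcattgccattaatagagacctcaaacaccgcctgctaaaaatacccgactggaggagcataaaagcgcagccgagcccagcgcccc
HSPA8, chr11:123062137-123062386, minus strand: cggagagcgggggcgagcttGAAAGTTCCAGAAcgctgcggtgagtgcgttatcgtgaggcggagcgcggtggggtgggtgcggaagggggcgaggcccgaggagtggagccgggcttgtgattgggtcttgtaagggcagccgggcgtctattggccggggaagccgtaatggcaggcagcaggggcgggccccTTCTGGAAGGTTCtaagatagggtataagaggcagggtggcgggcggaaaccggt
HSP90AB1, chr6:44247693-44247942, plus strand: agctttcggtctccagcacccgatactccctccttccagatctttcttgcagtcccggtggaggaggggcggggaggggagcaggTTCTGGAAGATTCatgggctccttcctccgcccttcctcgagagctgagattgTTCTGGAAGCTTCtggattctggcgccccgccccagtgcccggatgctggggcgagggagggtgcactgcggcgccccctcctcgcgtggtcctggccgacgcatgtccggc
HSP90AA1, chr14:102087045-102087294, minus strand: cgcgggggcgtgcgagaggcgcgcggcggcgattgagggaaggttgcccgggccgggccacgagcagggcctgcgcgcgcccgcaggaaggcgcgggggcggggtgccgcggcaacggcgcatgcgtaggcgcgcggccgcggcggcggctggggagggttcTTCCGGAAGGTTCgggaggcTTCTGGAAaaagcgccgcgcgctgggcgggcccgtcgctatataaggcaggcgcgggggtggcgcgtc
DNAJC12, chr10:67838189-67838438, minus strand: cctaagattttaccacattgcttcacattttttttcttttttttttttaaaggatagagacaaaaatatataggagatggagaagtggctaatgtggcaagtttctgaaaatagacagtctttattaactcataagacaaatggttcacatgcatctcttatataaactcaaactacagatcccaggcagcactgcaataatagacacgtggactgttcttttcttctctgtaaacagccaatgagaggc
In these windows GAANNTTC and TTCNNGAA together had 4 matches each in HSPA8 and HSP90AB1, 3 each in HSP90AA1 and HSPD1, 1 in HSPB1 and 0 in DNAJC12. Other windows of HSP90AB1 and HSP90AA1, not printed, had 0. The windows of AHSA1 and DNAJB2, which fell in counts, also had 0. The printed windows were picked and do not stand for the members as a whole. Among windows of tested members, 3 of 15 windows of genes that fell held a match, 1 of 12 of genes that rose and 12 of 53 of genes that did not pass. A match describes letters and says nothing of binding in these cells.

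Of the 84 rows, 67 passed the filter on low counts and 22 of these changed at an adjusted p under 0.05 (edgeR quasi-likelihood test, adjusted over 15199 genes), while 35.5% of all tested genes changed. Rises were found for 9 members (13.4%, beside 16.8% of all tested genes) and falls for 13 (19.4%, beside 18.7%). Changes past 1 on the log2 scale were found for 5 members, where 8.64% of all tested genes had one. These shares lie near those of all genes, and the median log2 fold change was 0.02 over the tested members and 0.02 over all tested genes. CPM did not overlap between the groups for 52 of the 67, beside 70.8% of all tested genes. Summed over all 84 rows, the members held 15060 and 14090 CPM with Ctrl shRNA and 14050 and 13770 CPM with STAT3 shRNA. In bulk RNA, fewer cells of a kind and less RNA per cell cannot be told apart. Rises and falls were both more numerous without Ctrl shRNA replicate 1, and both fewer without STAT3 shRNA replicate 1 or 2. With a library left out, the spread came from the other group alone, so such moves do not show dependence on that library. Counts under other settings, here and below, lack the share of all genes under the same setting. They do not single out the members or the lists below.

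**Figure D1:**
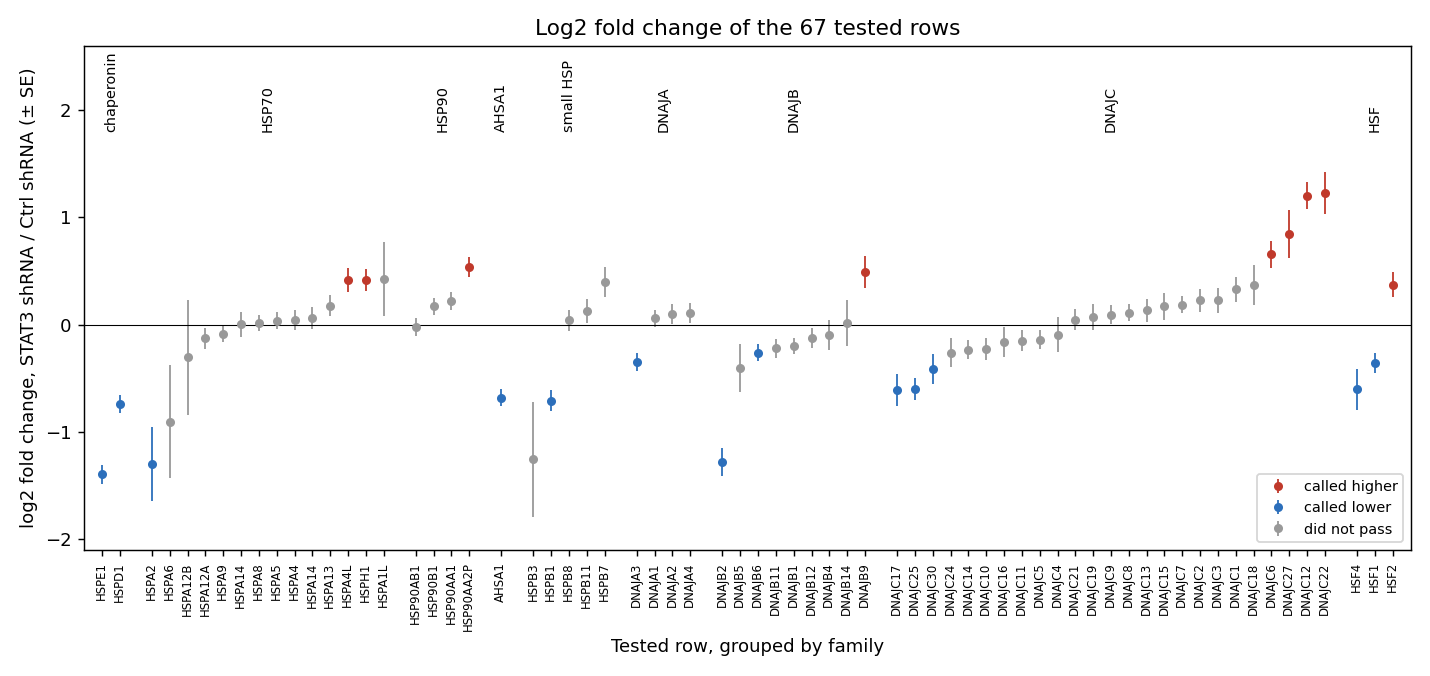
Log2 fold change (STAT3 shRNA over Ctrl shRNA, vertical axis, with SE as bars) of the 67 tested rows, ordered within each family along the horizontal axis and coloured by call. Both chaperonin genes lie below 0, at -1.40 and -0.74, while the DNAJC genes run from -0.61 to 1.23.

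Both subunits of the mitochondrial chaperonin fell. HSPE1, the lid of the chamber (ENSG00000115541.11, chr2:197499994-197503457, plus strand, GRCh38 as in GENCODE 29), was at 217 and 219.5 CPM with Ctrl shRNA and 86.5 and 79.02 CPM with STAT3 shRNA. HSPD1, the barrel (ENSG00000144381.17, chr2:197486581-197516737, minus strand), was at 1556 and 1388 CPM with Ctrl shRNA and 874 and 885 CPM with STAT3 shRNA. For each gene both STAT3 shRNA libraries lay below both Ctrl shRNA libraries. HSPE1 fell 2.63-fold (log2 fold change -1.40 ± 0.09 SE, 95% interval -1.59 to -1.20, adjusted p = 1.66e-05, edgeR). HSPD1 fell 1.67-fold (log2 fold change -0.74 ± 0.08 SE, 95% interval -0.93 to -0.55, adjusted p = 0.000336, edgeR). On the FPKM scale, a level per transcript length, HSPE1 was at 704 and 802 against 275 and 266 and HSPD1 at 833 and 771 against 510.4 and 505 (Ctrl shRNA against STAT3 shRNA). By these levels per length, HSPE1 was below HSPD1 in both STAT3 shRNA libraries and on either side of it with Ctrl shRNA. Counts and FPKM together imply an HSPE1 length of 301.4 and 260.2 bases with Ctrl shRNA and 324 and 308.9 bases with STAT3 shRNA. The order with Ctrl shRNA thus rests on a length that differed between the libraries.

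The annotated spans of HSPE1 and HSPD1 overlap on opposite strands, and without strand their reads cannot be told apart there. The readthrough gene HSPE1-MOB4 had 0 and 26 reads with Ctrl shRNA and 93 and 36 reads with STAT3 shRNA. With the reads of that gene and of pseudogenes added, HSPE1 stood at -1.35 on the log2 scale (adjusted p = 2.17e-05, edgeR). Genes nearby were also lower. Of the 40 tested genes nearest to HSPE1, 19 fell and 1 rose, with a median log2 fold change of -0.43. HSPE1 lies within the span of HSPD1, so the same figures for HSPD1 are not a second observation. Each gene is also among the fallen neighbours of the other. The part of this neighbourhood in the falls of HSPE1 and HSPD1 was not tested.

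Other mitochondrial members moved less. HSPA9, the HSP70 of the matrix, was at 639 and 598 CPM against 568 and 597 CPM, so the groups met without overlapping. Its log2 fold change of -0.09 did not pass (95% interval -0.27 to 0.10, adjusted p = 0.438, edgeR). With an offset for GC content HSPA9 had -0.22 and passed (adjusted p = 0.0307, range over the alternatives 0.0307 to 0.851). DNAJA3, a mitochondrial J-domain partner of HSPA9, went from 142 and 154 CPM to 119 and 114 CPM and fell by 0.35 (adjusted p = 0.0125, edgeR). DNAJC30, which associates with the ATP synthase, went from 20.2 and 24.9 CPM to 16.02 and 17.8 CPM and fell by 0.42 (adjusted p = 0.0428, edgeR). It overlaps BUD23 on the opposite strand, which has 767% as many reads. Of 8 mitochondrial members 4 fell and 0 rose, where 18.7% of all tested genes fell and 16.8% rose, with a median log2 fold change of -0.25. The falls of DNAJA3 and DNAJC30 did not pass without STAT3 shRNA replicate 1 (adjusted p = 0.107 and 0.278, edgeR) or replicate 2 (0.181 and 0.107), and that of DNAJC30 not without Ctrl shRNA replicate 2 (0.145). Over the alternatives the adjusted p ran from 0.000252 to 0.181 for DNAJA3 and from 0.00208 to 0.278 for DNAJC30.

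Among 13 other genes of mitochondrial protein import, folding and proteolysis, 5 fell (38.5%, beside 18.7% of all tested genes). Of the 13, 0 rose, beside 16.8% of all tested genes, and the median log2 fold change was -0.25. LONP1, a protease of the matrix, went from 279 and 308 CPM to 188 and 185 CPM and fell by 0.66 (adjusted p = 0.000641, edgeR). TIMM44, which tethers HSPA9 to the import channel, fell by 0.62 (0.000862), and CLPP, another matrix protease, fell by 0.54 (0.00359). The others were HTRA2 and TRAP1, the mitochondrial HSP90. The number of falls was 3 without STAT3 shRNA replicate 1 or 2 and 8 without Ctrl shRNA replicate 2 or with the GC offset.

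The most abundant HSP70 and HSP90 genes did not pass the test. HSPA8, the cognate HSP70 of the cytosol, abundant without stress, was at 2077 and 1970 CPM with Ctrl shRNA and 2092 and 1991 CPM with STAT3 shRNA, and the groups overlapped. Its log2 fold change was 0.01 with a 95% interval from -0.16 to 0.18 (adjusted p = 0.909, edgeR). HSP90AB1, the constitutive HSP90, was at 2429 and 2169 CPM against 2263 and 2264 CPM, with the STAT3 shRNA libraries between those with Ctrl shRNA. Its log2 fold change was -0.02 (95% interval -0.21 to 0.16, adjusted p = 0.851, edgeR). HSP90AA1, the inducible HSP90, was at 2159 and 1910 CPM against 2433 and 2293 CPM without overlap. Its log2 fold change of 0.22 (95% interval 0.02 to 0.41, adjusted p = 0.0782, edgeR) passed without Ctrl shRNA replicate 1 (0.00245) and with upper-quartile scaling (0.0359), and the p ran from 0.00245 to 0.432 over the alternatives. In the endoplasmic reticulum, HSP90B1 had a log2 fold change of 0.17 (95% interval -0.01 to 0.35) and HSPA5, the HSP70 there, of 0.04 (95% interval -0.15 to 0.22).

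A pair of HSP110 genes rose, which act as nucleotide exchange factors of HSP70. HSPH1 (chr13:31134974-31162388, minus strand) was at 175 and 142 CPM with Ctrl shRNA and 213 and 210.3 CPM with STAT3 shRNA. HSPA4L (chr4:127781821-127840733, plus strand) was at 124 and 97.5 CPM with Ctrl shRNA and 147 and 148 CPM with STAT3 shRNA. For each gene Ctrl shRNA replicate 1 was the higher control library and still lay below both STAT3 shRNA libraries. HSPH1 was 1.33-fold higher (log2 fold change 0.41 ± 0.10 SE, adjusted p = 0.0147, edgeR) and HSPA4L was 1.33-fold higher (0.41 ± 0.11 SE, adjusted p = 0.0216, edgeR). HSPA4, the third gene of this subfamily, had a log2 fold change of 0.04 (95% interval -0.17 to 0.26) and overlapping groups. Neither rise passed without STAT3 shRNA replicate 1 (adjusted p = 0.0956 for HSPH1 and 0.101 for HSPA4L) or replicate 2 (0.0852 and 0.105). The p ran from 4.33e-05 to 0.0956 for HSPH1 and from 3.78e-05 to 0.105 for HSPA4L over the alternatives, and both log2 fold changes were smaller with the GC offset (0.22 and 0.23).

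HSPA2, an HSP70 gene best known from the testis, was low and fell, at 2.97 and 2.3 CPM against 1.05 and 1.09 CPM (log2 fold change -1.30 ± 0.35 SE, adjusted p = 0.0191, edgeR). It did not pass without Ctrl shRNA replicate 1 (adjusted p = 0.063) or STAT3 shRNA replicate 1 or 2 (0.117 and 0.101), with a range of 0.00388 to 0.117 over the alternatives. Few reads were counted for the classical stress-inducible HSP70 genes. HSPA1A had 0, 2, 7 and 5 reads and HSPA1B 0, 7, 17 and 8 reads, with the Ctrl shRNA libraries first, and both were under the filter. Their longest transcripts are 98.6% identical over 2152 aligned bases, and how reads that match both were counted is unknown. Both their levels and the split between them are therefore uncertain. Their summed reads had a log2 fold change of 1.75 ± 0.91 SE (adjusted p = 0.165, edgeR). HSPA6, also stress-inducible, was at 1.01 and 0.941 CPM against 0.675 and 0.326 CPM and did not pass (log2 fold change -0.91, adjusted p = 0.214). HSPA12A, HSPA12B, HSPA13, HSPA1L and the rows of HSPA14 did not pass, with log2 fold changes from -0.31 to 0.43.

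HSP90AA2P, a processed pseudogene on chromosome 11, was at 58.3 and 56.99 CPM against 87.9 and 79.02 CPM and 1.45-fold higher (adjusted p = 0.00248, edgeR). It is 97.1% identical to HSP90AA1 over 2199 aligned bases, so reads assigned to it are uncertain. HSP90AA1 with its copies summed stood at 0.23 on the log2 scale (adjusted p = 0.0672, edgeR). The rise of HSP90AA2P did not pass without STAT3 shRNA replicate 1 (0.0605, with a range of 3.98e-06 to 0.0605 over the alternatives). The other HSP90 copies (HSP90AA4P, HSP90AA5P, HSP90AA6P, HSP90AB2P, HSP90AB3P, HSP90AB4P, HSP90B2P and HSP90B3P) and HSPA7 were under the filter, with 9 reads or fewer in any library and HSP90B3P at 0 in all.

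AHSA1, which stimulates the ATPase of HSP90, differed between the deposited tables. In counts it was at 209 and 210.3 CPM with Ctrl shRNA and 132 and 129 CPM with STAT3 shRNA, a 1.6-fold fall without overlap (log2 fold change -0.68 ± 0.08 SE, adjusted p = 0.000372, edgeR). In FPKM it was at 240.4 and 223 against 220.3 and 244, and the groups overlapped. The log2 fold change on the log2(FPKM + 0.1) scale was 0.0017 (adjusted p = 0.992, limma-trend). Counts and FPKM together imply a transcript length of 848 and 895 bases in the Ctrl shRNA libraries and 616 and 550.4 bases in the STAT3 shRNA libraries. Such differences over 0.5 between the scales were found for 4 of 67 tested members (5.97%), beside 7.34% of all tested genes. The others were DNAJB14, a J-domain protein of the endoplasmic reticulum membrane (0.02 in counts and -1.29 in FPKM), the mitochondrial DNAJC15 (0.17 and -0.39) and DNAJC27 (0.84 and 0.30). DNAJB14 passed in FPKM only (adjusted p = 0.0172, limma-trend). What made the tables differ was not tested.

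**Figure D2:**
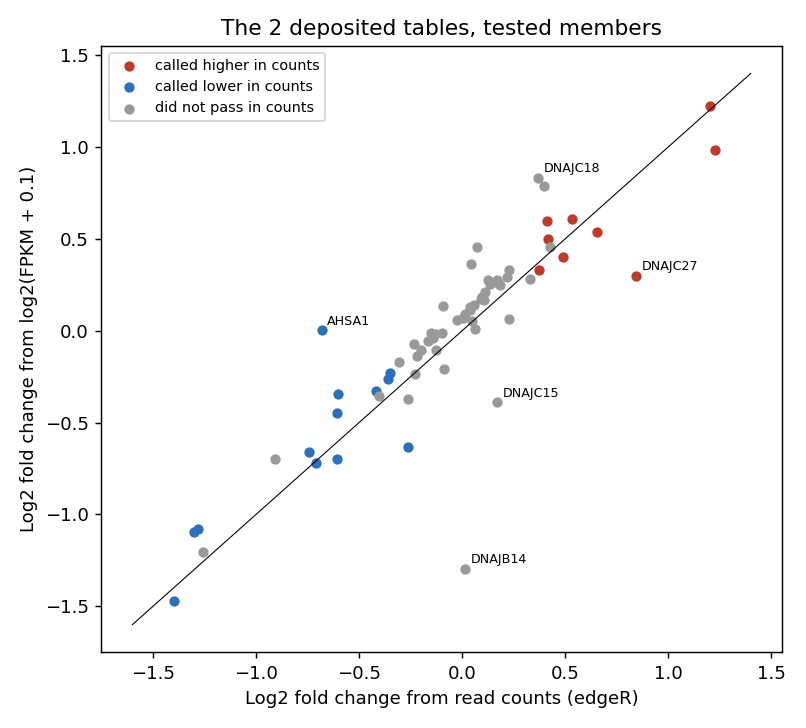
Log2 fold change of each tested member from read counts (horizontal axis) and from log2(FPKM + 0.1) (vertical axis), coloured by the call in counts, with the line of equal values. AHSA1 stands at -0.68 in counts and at 0.0017 in FPKM, and DNAJB14 at 0.02 and -1.29.

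Among 25 tested co-chaperones of HSP90 and HSP70 with other names, 12 fell (48%, beside 18.7% of all tested genes), 2 rose (8%, beside 16.8%) and the other 11 missed the threshold. Their median log2 fold change was -0.30. FKBP4, an immunophilin of steroid receptor complexes, went from 305 and 337 CPM to 221 and 202 CPM and fell by 0.60 (adjusted p = 0.00128, edgeR). CDC37, which brings kinases to HSP90, fell by 0.50 (0.00774), and STIP1, which links HSP70 to HSP90, fell by 0.30 (0.0296). STUB1, a ubiquitin ligase that works on chaperone clients, fell by 0.56 (0.00436). HSP70 exchange factors were among the falls, with BAG1 at -0.46, BAG3 at -0.35 and HSPBP1 at -0.47. The remaining falls were those of NUDC (-0.51), FKBP8 (-0.50), HSBP1 (-0.40), UNC45A (-0.38) and PPP5C (-0.30). HSBP1 is a heat shock factor binding protein and not a co-chaperone, but is counted in this list. BAG4 rose by 0.74 (0.00129) and TOMM34 rose by 0.30 (0.0176).

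Transcripts of these co-chaperones had a median GC content of 51.1%, beside 45.8% for the tested members and 48.7% for 14545 tested genes with a reference transcript. Log2 fold change and GC content had a Spearman rho of -0.434 across the 67 tested members and of -0.339 across the 14545 genes, which share the same libraries. With the GC offset 8 co-chaperones fell and 2 rose (median -0.17). In FPKM 4 rose and 4 or 3 fell, with a pseudocount of 1 or 0.1. Fewer fell without STAT3 shRNA replicate 1 or 2, and more rose without Ctrl shRNA replicate 1. With a library left out their median ran from -0.31 to -0.22. The share of all genes under each of these settings is not given, so these counts do not single out the co-chaperones.

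HSPB1 (HSP27), the most abundant small heat shock protein here, fell. HSPB1 (ENSG00000106211.9, chr7:76302544-76304295, plus strand) was at 684 and 824 CPM with Ctrl shRNA and 466 and 456 CPM with STAT3 shRNA, without overlap. It fell 1.64-fold (log2 fold change -0.71 ± 0.10 SE, 95% interval -0.93 to -0.49, adjusted p = 0.000919, edgeR). On the FPKM scale it was at 1257 and 1606 against 859 and 868. The 40 tested genes nearest to HSPB1 had a median log2 fold change of 0.0017, with 7 lower and 9 higher. Its transcript has a GC content of 64.3%, and with the GC offset its log2 fold change was -0.42 (adjusted p = 0.00188, range over the alternatives 1.57e-13 to 0.041). HSPB8, a partner of BAG3, had a log2 fold change of 0.04 (95% interval -0.18 to 0.26) and HSPB11, a subunit of ciliary transport, of 0.13 (-0.12 to 0.37). HSPB7 had 0.40 in counts (adjusted p = 0.0572, edgeR), 0.59 in counts with the GC offset, where it passed (0.00727, edgeR), and 0.79 in FPKM (0.0318, limma-trend). HSPB3, near 1 CPM, did not pass (-1.26, adjusted p = 0.101), and HSPB2, HSPB6 and HSPB9 were under the filter.

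J-domain proteins moved in both directions. Of 4 DNAJA genes 1 fell and 0 rose, of 9 tested DNAJB genes 2 fell and 1 rose, and of 25 tested DNAJC genes 3 fell and 4 rose. These are 25%, 33.3% and 28% of the 3 families, beside 35.5% of all tested genes. DNAJC22, a J-domain protein with membrane-spanning segments (chr12:49346917-49357546, plus strand), was at 5.41 and 7.27 CPM with Ctrl shRNA and 13.4 and 16.4 CPM with STAT3 shRNA. DNAJC12, which binds the aromatic amino acid hydroxylases (chr10:67796665-67838166, minus strand), was at 10.8 and 12.2 CPM with Ctrl shRNA and 27.2 and 25.5 CPM with STAT3 shRNA. For both genes the lower STAT3 shRNA library was above the higher Ctrl shRNA library. DNAJC22 rose 2.34-fold (log2 fold change 1.23 ± 0.19 SE, 95% interval 0.79 to 1.67, adjusted p = 0.00172, edgeR). DNAJC12 rose 2.3-fold (log2 fold change 1.20 ± 0.12 SE, 95% interval 0.92 to 1.48, adjusted p = 0.000228, edgeR). The median of the 40 nearest tested genes was -0.01 at DNAJC22 and 0.25 at DNAJC12, where 13 rose and 2 fell.

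The other rises in these families were smaller. DNAJC6 (auxilin), which uncoats clathrin vesicles with HSPA8, went from 15.4 and 13.8 CPM to 24.3 and 21.5 CPM and rose by 0.65 (adjusted p = 0.00479, edgeR). DNAJC27, a small GTPase with a J domain, went from 3.39 and 2.88 CPM to 5.37 and 5.92 CPM and rose by 0.84 (0.0188), among 40 nearest genes of which 21 rose and 0 fell (median 0.38). DNAJB9, which restrains the stress sensor IRE1 in the endoplasmic reticulum, went from 9.17 and 10.2 CPM to 13.3 and 14.02 CPM and rose by 0.49 (0.0313), and overlaps PNPLA8 and THAP5 on the opposite strand, with 310% and 229% as many reads. The groups did not overlap for these genes. None of the rises passed without STAT3 shRNA replicate 1 (adjusted p = 0.0637 for DNAJC6, 0.0844 for DNAJC27 and 0.127 for DNAJB9), those of DNAJC27 and DNAJB9 not without replicate 2 (0.149 and 0.2) and that of DNAJB9 not without Ctrl shRNA replicate 1 (0.0749). Over the alternatives the p ran from 7.55e-05 to 0.0874 for DNAJC6, from 0.00637 to 0.539 for DNAJC27 and from 0.0174 to 0.222 for DNAJB9.

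DNAJB2, which sends clients to the proteasome, had the lowest log2 fold change of the tested J-domain genes. DNAJB2 (ENSG00000135924.15, chr2:219279267-219286900, plus strand) was at 38.1 and 48.3 CPM with Ctrl shRNA and 17.9 and 17.7 CPM with STAT3 shRNA, with a gap between the groups wider than the spread within either. It fell 2.43-fold (log2 fold change -1.28 ± 0.13 SE, 95% interval -1.57 to -0.99, adjusted p = 0.000208, edgeR). Of its 40 nearest tested genes 32 fell and 1 rose, with a median of -0.81, and the part of this neighbourhood in the fall was not tested. DNAJC25 went from 29.4 and 27.7 CPM to 19.02 and 18.6 CPM and fell by 0.60 (0.00288), but had -0.34 in FPKM (adjusted p = 0.249, limma-trend, range over the alternatives 4.64e-05 to 0.251). DNAJC17, a nuclear J-domain protein, went from 15.9 and 19.3 CPM to 10.99 and 12.2 CPM and fell by 0.61 (0.0135). It did not pass without STAT3 shRNA replicate 1 (0.109, range 0.000933 to 0.109), and it overlaps GCHFR and ZFYVE19 on the opposite strand, with 218% and 212% as many reads.

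DNAJB6, a suppressor of protein aggregation, went from 143 and 136 CPM to 116 and 117 CPM and fell by 0.26 (adjusted p = 0.0326, edgeR), the smallest change of the 22 in counts. In FPKM it had -0.63 and passed (0.031, limma-trend). In counts it did not pass without STAT3 shRNA replicate 1 or 2 (0.28 and 0.258), with upper-quartile scaling (0.0648) or with the GC offset (0.168), and the p ran from 0.00441 to 0.28 over the alternatives. The abundant J-domain genes did not pass. DNAJA1, a main partner of HSPA8, was at 366 and 342 CPM against 368 and 369 CPM, with a log2 fold change of 0.06 (95% interval -0.12 to 0.24). DNAJB1, the stress-inducible partner, was at 225 and 233 CPM against 199.8 and 199.6 CPM (-0.20, adjusted p = 0.0765) and passed without Ctrl shRNA replicate 1 (0.00601, range 0.00601 to 0.409). DNAJC8, of the splicing machinery, had 0.11 (95% interval -0.07 to 0.29). DNAJC7, which binds HSP70 and HSP90, had 0.19 (adjusted p = 0.111) and passed without Ctrl shRNA replicate 1 (0.0481, range 0.0481 to 0.544). The 18 DNAJC genes that did not pass ran from -0.26 (DNAJC24) to 0.37 (DNAJC18). DNAJB7, DNAJC28 and DNAJB13, the last at 0 in all libraries, were under the filter.

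**Figure D3:**
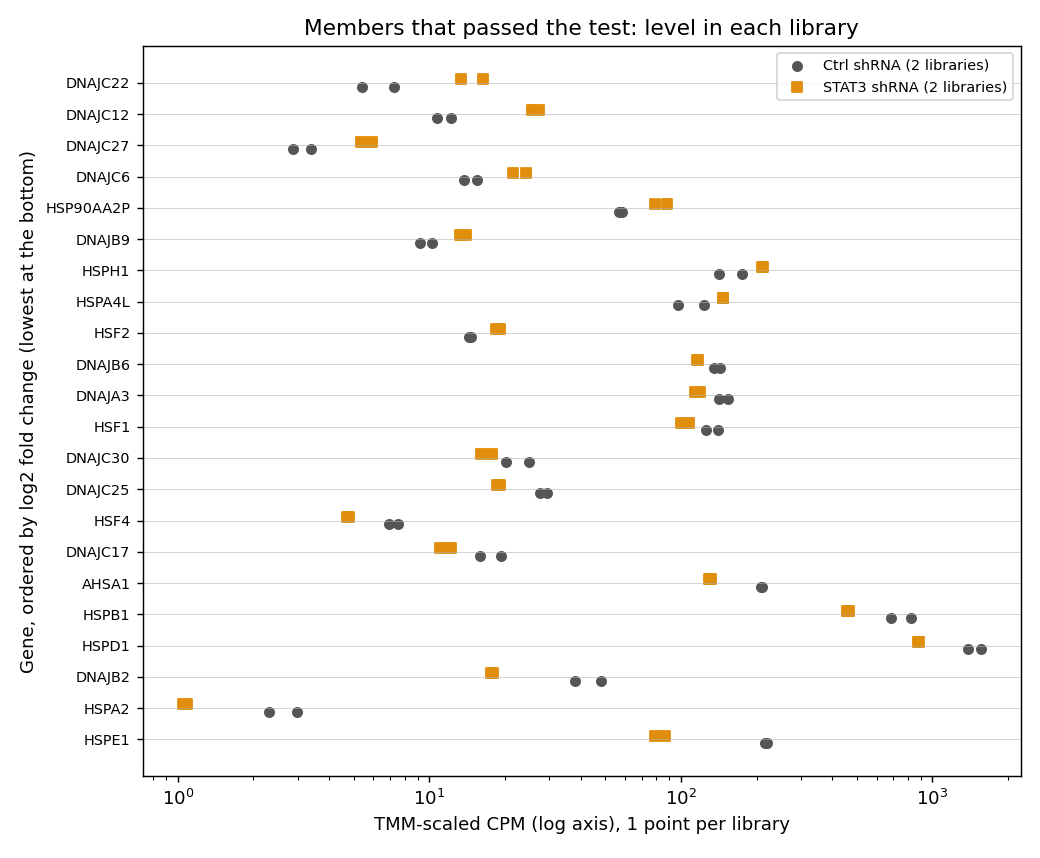
CPM (horizontal log axis, 1 point per library) of the 22 members that passed the test, ordered by log2 fold change from HSPE1 at the bottom to DNAJC22 at the top, with circles for Ctrl shRNA and squares for STAT3 shRNA. In every row the 2 squares lie to 1 side of the 2 circles.

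All 3 heat shock factors passed the test, 2 lower and 1 higher, where 18.7% of all tested genes fell and 16.8% rose. None of the 3 kept its call in all alternatives. HSF1, the main factor of the heat shock response, went from 126 and 141 CPM to 108 and 100.3 CPM and fell by 0.36 (adjusted p = 0.0155, edgeR). HSF4, known from the lens, went from 6.95 and 7.53 CPM to 4.73 and 4.78 CPM and fell by 0.61 (0.0342). HSF2, which can form complexes with HSF1, went from 14.6 and 14.3 CPM to 18.5 and 19.1 CPM and rose by 0.37 (0.0404). The groups did not overlap for these genes. With the GC offset the log2 fold changes were -0.06 for HSF1 (adjusted p = 0.512), -0.35 for HSF4 (0.157) and 0.18 for HSF2 (0.225). Without STAT3 shRNA replicate 1 the p-values of HSF1, HSF4 and HSF2 were 0.0874, 0.196 and 0.195, and without replicate 2 they were 0.202, 0.174 and 0.252. HSF4 also did not pass without Ctrl shRNA replicate 2 (0.0599), and HSF2 not without Ctrl shRNA replicate 1 or 2 (0.0526 and 0.0598). Over the alternatives the p ran from 0.000209 to 0.512 for HSF1, from 0.014 to 0.273 for HSF4 and from 0.0265 to 0.252 for HSF2. Of the 40 tested genes nearest to HSF1, 22 fell and 0 rose (median -0.48), and the overlapping DGAT1 on the opposite strand has 25.4% as many reads.

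**Figure D4:**
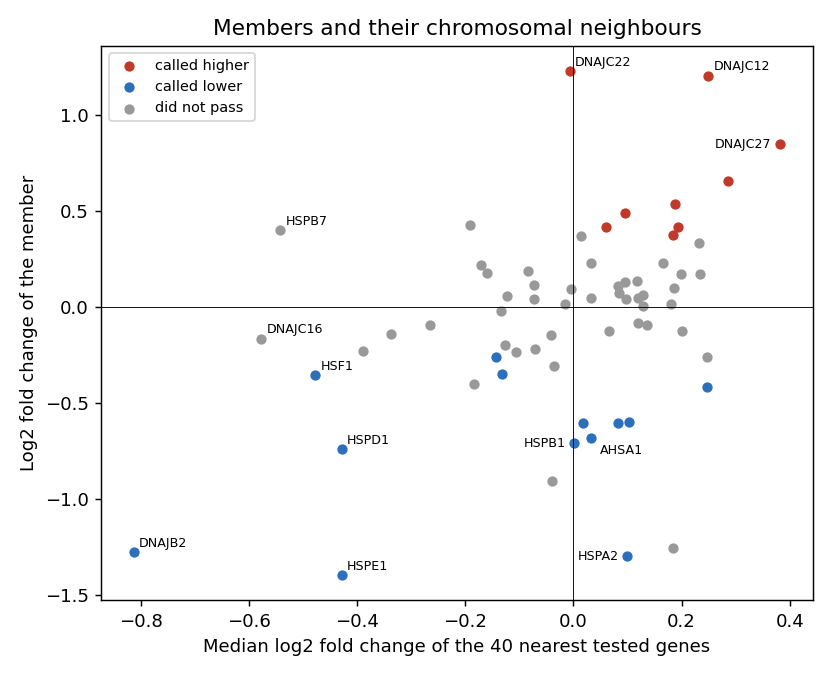
Log2 fold change of each tested member (vertical axis) against the median log2 fold change of its 40 nearest tested genes on the chromosome (horizontal axis), coloured by call. DNAJB2, HSF1, HSPD1 and HSPE1 lie where the neighbours had medians of -0.81, -0.48, -0.43 and -0.43, while HSPB1, AHSA1 and HSPA2 lie at 0.0017, 0.03 and 0.10.

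By place in the cell, 1 of 10 members of the endoplasmic reticulum rose (DNAJB9) and 0 fell, beside 16.8% and 18.7% of all tested genes, with a median log2 fold change of 0.10. These 10 summed to 1895 and 1735 CPM with Ctrl shRNA and to 1940 and 1920 CPM with STAT3 shRNA. Of the 10, 3 rose without Ctrl shRNA replicate 1, 2 fell without Ctrl shRNA replicate 2, 2 fell (DNAJB11 and DNAJC10) and 1 rose (DNAJC1) with the GC offset, and 0 rose without STAT3 shRNA replicate 1 or 2. The 8 mitochondrial members summed to 2728 and 2542 CPM against 1820 and 1834 CPM, most of it HSPD1 and HSPA9. Without STAT3 shRNA replicate 1 or 2, 2 of the 8 fell, and these counts include HSPE1 and HSPD1, which neighbour each other. Members listed as responsive to heat or stress did not share a direction. Of 11 tested, 2 rose (HSPH1 and HSPA4L, 18.2%, beside 16.8% of all tested genes). Falls were found for 4 (HSPE1, HSPD1, HSPB1 and AHSA1, 36.4%, beside 18.7%), of which AHSA1 had a log2 fold change of 0.0017 in FPKM. The other 5 did not pass (HSPA8, HSP90AA1, DNAJA1, DNAJB1 and HSPA6).

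Other folding genes were mixed. Of 14 subunits of the cytosolic chaperonin TRiC and of prefoldin, which hands it clients, 3 fell and 1 rose (28.6% changed, beside 35.5% of all tested genes), with a median log2 fold change of -0.15. These falls were -0.57 for PFDN2 (adjusted p = 0.00601, edgeR), -0.32 for CCT7 (0.0133) and -1.13 for PFDN6 (0.0309). Falls numbered 7 and 6 without Ctrl shRNA replicate 1 and 2, 1 without STAT3 shRNA replicate 1 or 2 and 9 with the GC offset. Of 13 folding factors of the endoplasmic reticulum 3 fell and 2 rose (38.5%, beside the same 35.5%), with a median of 0.08. SIL1, an exchange factor of HSPA5, fell by 0.73 (0.000943), SDF2L1 fell by 0.70 (0.00246) and ERP29 fell by 0.53 (0.00337). The rises there were 5 without Ctrl shRNA replicate 1, 0 without STAT3 shRNA replicate 1 and 1 without replicate 2. Of 9 tested HSP and J-domain genes with other names, 3 fell and 1 rose (44.4%, beside 35.5%). The falls were those of SIL1, of TRAP1 (from 418 and 448 CPM to 327 and 321 CPM, -0.42, adjusted p = 0.00436) and of SERPINH1, the collagen chaperone (-0.40, 0.00456), and 1 of the 9 fell without STAT3 shRNA replicate 1 or 2.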

How the data were processed

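Total RNA of 4 libraries was sequenced. Per the file headers, the authors deposited a table of raw counts by gene (not normalized) and a table of FPKM. The sources used here do not name the aligner, the counting rule, the annotation, the build, the kit or the use of strand. Columns named "Si" were read as STAT3 shRNA, an inference from the titles.

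edgeR 4.0.16 (R 4.3.3) was run on the counts with TMM factors (0.951 to 1.04), filterByExpr and a two-sided quasi-likelihood test of group alone, and p-values were adjusted by Benjamini-Hochberg over 15199 genes, with 0.05 as the threshold. The procedure was also run on simulated counts that shared a common dispersion (0.00967) for all genes. That run tests the code and not the calls made here. In a library, 3 reads correspond to 0.113 to 0.163 CPM, which covers counting error only. Chi-square per degree of freedom between libraries of a group was 13.9 (Ctrl shRNA) and 4.2 (STAT3 shRNA), above sampling noise in each group. Positions and GC content are from GENCODE 29, matched by Ensembl ID, and transcripts were aligned with blastn 2.17.0. Genes overlapping on the chromosome with at least 20% as many reads were found for 6 members that passed (DNAJB9, DNAJC17, DNAJC30, HSF1, HSF4 and HSPE1), so their values are uncertain.

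Members and gene lists were chosen with earlier results of these data known. The rule named every member that passed, the 2 most abundant tested members of each family by FPKM, AHSA1, each co-chaperone that passed and the 3 smallest p-values in each other list. Other members were named afterwards to account for them all. Alternatives were RLE and upper-quartile scaling, no filter, at least 5 CPM in 2 libraries, a block by replicate number, omission of single libraries, DESeq2 1.42.0, limma-trend (limma 3.58.1) on FPKM with pseudocounts of 1 and 0.1, a threshold of 0.01 and an offset for GC content. Summing near-identical copies was chosen after seeing the data.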

Additional observations from a re-analysis of the deposited data

How the results depend on the processing

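Of the 22 members that passed, 6 kept their call in every alternative run, namely HSPE1, HSPD1, HSPB1, DNAJB2, DNAJC12 and DNAJC22. Over 328 alternative values of the 22, 83 lost the call with the same sign, and 2 more, both of AHSA1, changed sign and did not pass, at 0.0017 with FPKM and either pseudocount. STAT3 kept its call, between -2.82 and -2.32. The member counts that follow, like the list counts under other settings above, lack the share of all genes under the same setting. They show that calls moved, not that members moved more than other genes. The rises numbered 5 with FPKM at either pseudocount and 4 at a threshold of 0.01, and the falls 7 and 6. With 1 library left out, rises ran from 2 to 14 and falls from 6 to 15, and the lone library of a group was assumed to vary like the other group. DESeq2 gave 6 rises and 10 falls. Upper-quartile scaling gave 12 and 11, with a median of all genes of 0.07, against 0.02 with TMM. The GC offset gave 9 and 13 of partly different members, as DNAJB6, DNAJB9, DNAJC30, HSF1, HSF2 and HSF4 did not pass and DNAJB11, DNAJC1, DNAJC10, DNAJC24, HSPA9 and HSPB7 did. With the replicate number as a block there were also 9 rises and 13 falls, HSF2 did not pass (adjusted p = 0.0668, edgeR) and HSP90AA1 did (0.0422). Same-numbered libraries did not deviate together (correlation -0.0242 across genes), so they share only a number. The 17 members under the filter, HSPA1A and HSPA1B among them, had too few reads to be tested, and low depth and absence cannot be told apart for them. For HSPA1A and HSPA1B, how reads that match both were counted is also unknown.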
